A study of Mus musculus with 9 samples.

Results

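The genes described here encode the hormones, amine-forming enzymes and granule proteins of gastric endocrine cells, 10 in number: Gast, Sst, Ghrl, Hdc, Chga, Chgb, Tph1, Cck, Iapp and Pyy. They were found among the 35080 gene names on the arrays by gene symbol, and all 10 passed the filter on dim probes that left 21730 genes for testing. They were read in whole stomachs of newborn mice, 5 with the genotype C/EBPbeta KO (KO 1 to KO 5) and 4 labelled WT (WT 1 to WT 4), with 1 mouse and 1 single-colour Agilent array each. The mice were killed at birth, although the labels' source field calls them old. Strain, sex and the part of the gene that was removed are not given in the sources used here. The comparison shows how the endocrine genes of the stomach stand at birth when C/EBPβ, a leucine zipper transcription factor, is missing.

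Gastric endocrine cells are scattered through the glands and release peptides and amines from dense-core granules. G cells of the antrum secrete gastrin, which acts on the enterochromaffin-like (ECL) cells of the corpus; these make histamine with histidine decarboxylase, the product of Hdc, and histamine drives acid secretion by parietal cells. D cells restrain this chain with somatostatin, and X/A-like cells secrete ghrelin, an appetite hormone. Granins such as chromogranin A and B pack the granules of most of these cells.

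Each member was read by 1 probe of 60 bases. Sst and Chgb had 10 spots per array each and the other 8 had 1 spot each. The Gast and Pyy probes are shown because those genes turned on a single knockout mouse, and because both probes lie in the coding part of the transcript, from position 61 of the Gast transcript and position 224 of the Pyy transcript. On mm9 they lie on chromosome 11, Gast on the plus strand at chr11:100197806-100197865 and Pyy on the minus strand at chr11:101968311-101968370.
Gast probe: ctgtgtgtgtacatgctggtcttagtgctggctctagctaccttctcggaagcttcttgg
Pyy probe: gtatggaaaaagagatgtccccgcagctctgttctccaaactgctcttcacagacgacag

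RefSeq promoters (GRCm38.p6) were on hand for all 10 members, 15 start sites in total, and the 250 bases before each start were searched on both strands. The cAMP response element TGACGTCA was present before Sst, from base 48 before the start, and before Chgb, from base 72. It is held by 1.55% of 32851 promoters. Its shorter core TGACG, contained in the full element, was also found before Chga, Cck and Tph1, and is held by 17.8% of promoters. The C/EBP core TTGCNNAA was in none of the 15 windows and is held by 9.56% of promoters, which says only that these letters are not in these windows. The windows of Sst (minus strand, chr16:23890845-23891094), Chgb (plus strand, chr2:132781392-132781641) and Chga (plus strand, chr12:102554691-102554940) are shown for the cAMP response element, full in Sst and Chgb and as the shorter core in Chga, with the matched letters in capitals.
Sst promoter: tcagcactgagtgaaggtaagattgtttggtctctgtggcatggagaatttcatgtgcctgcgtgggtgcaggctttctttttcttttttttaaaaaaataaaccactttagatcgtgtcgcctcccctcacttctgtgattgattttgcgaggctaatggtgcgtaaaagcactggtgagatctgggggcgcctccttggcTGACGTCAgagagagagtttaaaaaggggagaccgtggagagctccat
Chgb promoter: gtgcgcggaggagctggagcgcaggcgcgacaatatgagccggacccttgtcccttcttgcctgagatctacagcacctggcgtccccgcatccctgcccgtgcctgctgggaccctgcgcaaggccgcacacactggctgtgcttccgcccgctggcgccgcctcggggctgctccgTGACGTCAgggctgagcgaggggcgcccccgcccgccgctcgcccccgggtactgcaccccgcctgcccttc
Chga promoter: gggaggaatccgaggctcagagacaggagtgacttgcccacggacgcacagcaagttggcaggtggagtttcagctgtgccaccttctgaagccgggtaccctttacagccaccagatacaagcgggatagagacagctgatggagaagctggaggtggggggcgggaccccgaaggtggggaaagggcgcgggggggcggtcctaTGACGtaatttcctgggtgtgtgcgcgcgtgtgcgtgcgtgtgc

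All levels are log2 of the processed signal relative to the array's 75th percentile, so 0 is the 75th percentile and 1 unit is a doubling. That percentile ran from 221 to 472 signal units over the arrays, and the share of spots detected well over background ran from 50.9% to 57.2%. Cebpb read from -2.87 to -1.58 in knockout and from 3.00 to 3.71 in wild type, so the arrays matched their genotype labels. All 18 glandular stomach markers of a list fixed for the labelled tissue passed the filter. The arrays lay on 4 slides: slide 1 held KO 4, KO 5, WT 3 and WT 4, slide 4 held KO 2, WT 1 and WT 2, and KO 1 and KO 3 had a slide each with no wild-type array. The 3 Y-linked genes tested were well above background on all 4 wild-type arrays and on KO 1 and KO 3, whereas KO 2 had 1 of them and KO 4 and KO 5 had 0. Sex, as read from these genes, was thus unbalanced between the genotypes and partly confounded with them. In whole-stomach RNA, a change in the number of cells of a type and a change in RNA per cell cannot be told apart.

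The mean of every member was higher in knockout than in wild type, and 50.9% of all genes tested had a higher mean there. The median difference of the members was 1.03 on the log2 scale against 0.0050 over all genes. Iapp passed the filter on dim probes through the knockout arrays alone, so it had to differ, and it is left out of the counts that follow, a choice made after seeing the data. The other 9 members had a median of 0.86. They include Tph1, which also needed the knockout arrays to pass, with 3 wild-type arrays well above background. Of these 9, Gast, Chgb, Pyy and Sst differed by more than 2-fold, as did 1.14% of all genes in that direction. None of these 9 passed the test over all genes (limma, 0 of 9 at an adjusted p below 0.05). Of all genes 0.202% passed in either direction and 0.124% with the knockout higher. An unadjusted limma p below 0.05 with the knockout higher held for 7 of the 9, and for 5.05% of all genes. For Sst, Hdc, Chgb and Pyy, 4 of the 9, the lowest of the 5 knockout arrays exceeded the highest of the 4 wild-type arrays, which held for 2.31% of all genes. With each array centred on its median instead, this held for Sst alone of the 9. Without KO 2 the count of members past the threshold was 3, namely Gast, Chgb and Pyy, where 0.0736% of all genes passed as higher and 0.129% in either direction. Without WT 4 no member passed (limma), where 0.423% of all genes passed as higher and 0.741% in either direction. Within slide 1 all 10 members, Iapp included, were higher in knockout, by 0.64 to 3.84, as were 46.7% of all genes. Within slide 4, where KO 2 stood alone, 7 of the 10 were, Iapp again included, as were 55.55% of all genes.

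**Figure D1:**
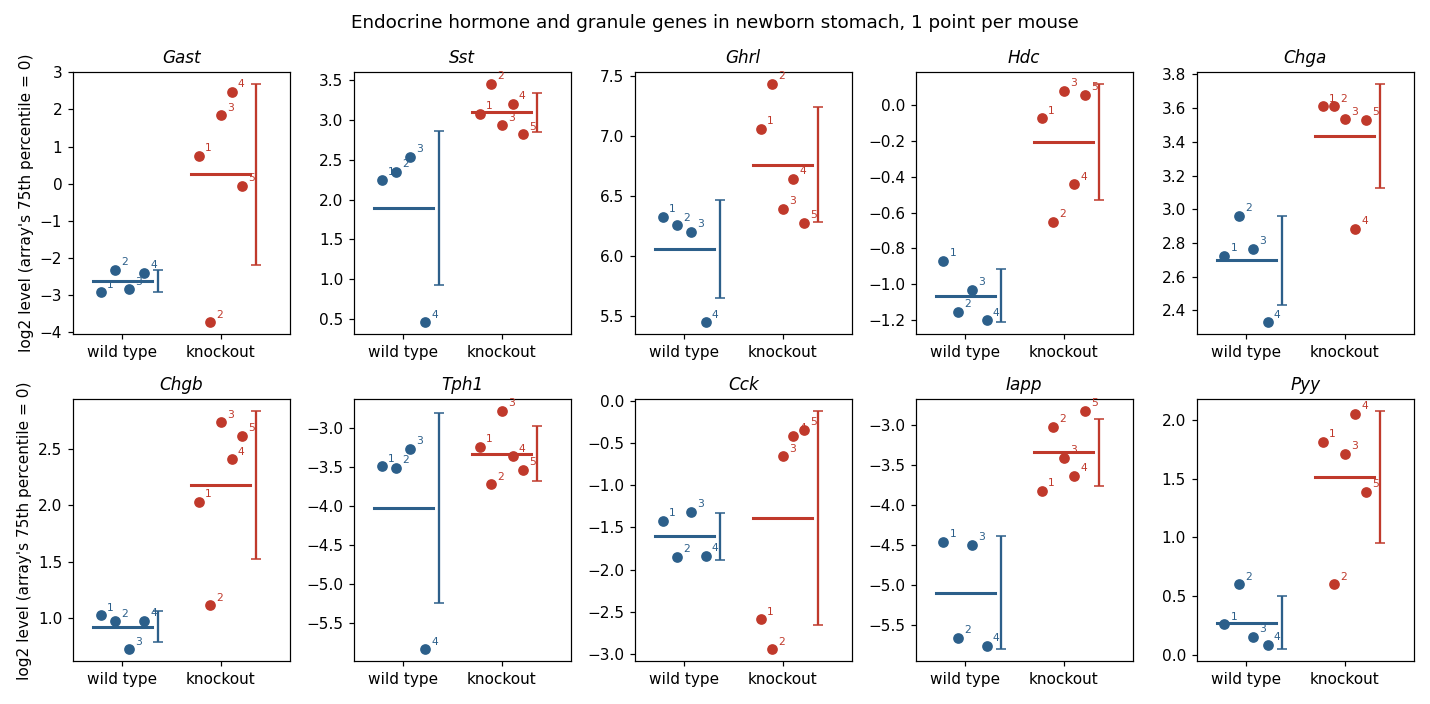
Level of each of the 10 genes on every array (log2, the array's 75th percentile is 0), with blue points for wild-type and red points for knockout mice, the number beside a point being that of the mouse, horizontal lines for group means and bars for the SD (n = 4 and 5). Gast is high in every knockout mouse except KO 2, and WT 4 is the lowest wild-type mouse for Sst, Ghrl, Chga and Tph1.

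Gast, the gastrin gene, differed most in size and least evenly. Its processed signal was 494, 21.4, 1689, 2554 and 438 units in mice KO 1 to KO 5, against 54.2, 68.1, 41.2 and 41.9 in mice WT 1 to WT 4. The corresponding log2 levels were 0.75, -3.74, 1.84, 2.48 and -0.07 in knockout and -2.93, -2.33, -2.85 and -2.40 in wild type. Thus 4 knockout mice lay far above every wild-type mouse, and KO 2 lay below all of them and was the 1 array on which the probe was not well above background. The mean difference was 2.88 ± 1.05 (SE; 7.37-fold; 95% interval 0.54 to 5.22; limma adjusted p = 0.470; exact permutation p = 0.0635, two-sided). Without KO 2 it was 3.88 ± 0.50 (14.7-fold; limma adjusted p = 0.0372). The difference was 1.86 with slide as a block, 3.84 within slide 1, and -1.11 within slide 4, where KO 2 was the knockout array. Over the arrays with Y-linked signal, KO 1 and KO 3 against wild type, it was 3.92.

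A pair of transcription factor genes linked to the antrum, chosen after their values were seen, read as follows. Nkx6-3, known from gastrin cell differentiation, read 0.43, -2.84, 1.01, 0.99 and 1.40 in mice KO 1 to KO 5, compared with -1.25, -1.52, -1.90 and 0.92 in mice WT 1 to WT 4. KO 2 was the lowest of all arrays for Nkx6-3 as for Gast, while WT 4 was as high as the other knockout arrays for Nkx6-3 and not for Gast. Pdx1, a factor of antrum, duodenum and pancreas, read -4.44, -4.76, -2.76, -3.45 and -2.25 in knockout and -5.23, -5.93, -5.34 and -3.53 in wild type, and was well above background on 3 knockout arrays and 1 wild-type array. Neither passed the test (limma adjusted p = 0.802 for Nkx6-3 and 0.526 for Pdx1). How much antrum each sample contained was not tested.

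Sst, which encodes somatostatin, read 3.08, 3.46, 2.94, 3.21 and 2.82 in mice KO 1 to KO 5, compared with 2.25, 2.35, 2.54 and 0.46 in mice WT 1 to WT 4. The knockout mice lay close together and all above wild type, and WT 4 lay far below the other 3 wild-type mice. The difference was 1.20 ± 0.39 (SE), or 2.30-fold (95% interval 0.33 to 2.07; limma adjusted p = 0.413; exact permutation p = 0.00794, the smallest the 126 splits allow). Without WT 4 it was 0.72 ± 0.17, or 1.65-fold (limma adjusted p = 0.104), with all knockout arrays still above the remaining 3.

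Ghrl, the ghrelin gene, read 7.06, 7.43, 6.39, 6.64 and 6.27 in knockout and 6.32, 6.25, 6.20 and 5.45 in wild type. KO 1, KO 2, KO 3 and KO 4 lay above all wild-type mice, and KO 5 lay just under WT 1. The highest array was KO 2, the mouse in which Gast was lowest. The difference was 0.70 ± 0.28 (SE), or 1.63-fold (95% interval 0.08 to 1.33; limma adjusted p = 0.511; exact permutation p = 0.0476), 0.50 ± 0.26 without WT 4, 0.64 within slide 1 and 1.15 within slide 4. Mboat4, the enzyme that acylates ghrelin, differed by 0.40 ± 0.27, and the ghrelin receptor gene Ghsr was well above background on 0 of 9 arrays.

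Hdc, whose product makes histamine in ECL cells, read -0.07, -0.65, 0.08, -0.44 and 0.06 in knockout and -0.87, -1.16, -1.03 and -1.20 in wild type. The groups did not overlap, and the wild-type mice spanned 0.33 units against 0.73 in knockout. The difference was 0.86 ± 0.19 (SE; 1.82-fold; 95% interval 0.44 to 1.28; limma adjusted p = 0.192; exact permutation p = 0.0159), 0.93 within slide 1 and 0.36 within slide 4. Slc18a2, the vesicular monoamine transporter of histamine-storing cells, differed by 0.53 ± 0.22 (limma adjusted p = 0.525), with WT 4 (-0.73) above 3 knockout arrays. Cckbr, the gastrin receptor gene carried by ECL and parietal cells, differed by 0.51 ± 0.32, with WT 4 (-1.02) again the highest wild-type array. The histamine receptor gene Hrh2 did not pass the filter on dim probes. Hdc is also a product of mast cells, and of 7 mast cell markers tested 3 were higher and 4 lower in knockout, with a median difference of -0.19. Their summed signal ran from 5.36 to 9.49 times the 75th percentile in knockout and from 3.91 to 11.4 in wild type. That sum rests on a bright gene, as Kit made up 76.2% of it on WT 4. The mast cell and basophil genes Fcer1a, Ms4a2 and Mcpt8 were well above background on 0 of 9 arrays. Mcpt2 (1.98) and Kit (0.43), chosen after their values were seen, were the mast cell markers whose groups did not overlap, both higher in knockout, and the part of mast cells in the Hdc difference was not tested.

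Tph1, which encodes the enzyme that opens serotonin synthesis in enterochromaffin cells, was dim. It read -3.24, -3.72, -2.78, -3.36 and -3.53 in knockout and -3.49, -3.51, -3.26 and -5.83 in wild type, where the probe on WT 4 was not well above background. Apart from that array the groups overlapped throughout. The difference was 0.70 ± 0.48 (SE; 95% interval -0.38 to 1.78; limma adjusted p = 0.770; exact permutation p = 0.254) and was 0.09 without WT 4 and 0.11 with normexp background correction. Ddc, the decarboxylase that follows Tph1, differed by 0.03 ± 0.18. The probe of the vesicular transporter gene Slc18a1 was well above background on 3 knockout arrays and 1 wild-type array. It needed the knockout arrays to pass the filter on dim probes, so no size is given.

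Chga and Chgb, the granin genes shared by most endocrine cells, were both higher. Chga read 3.61, 3.61, 3.53, 2.88 and 3.53 in knockout and 2.72, 2.96, 2.77 and 2.33 in wild type. KO 4 was the knockout mouse that lay under the wild-type maximum, and the other 4 lay together above it. The difference was 0.74 ± 0.20 (SE), or 1.67-fold (95% interval 0.29 to 1.18; limma adjusted p = 0.298; exact permutation p = 0.0238). Chgb read 2.03, 1.11, 2.74, 2.41 and 2.62 in knockout and 1.03, 0.97, 0.72 and 0.98 in wild type, where the mice spanned 0.30 units. KO 2 lay just above the highest wild-type mouse, and the other 4 knockout mice were at least 1 unit above it. The difference was 1.26 ± 0.31 (SE), or 2.39-fold (95% interval 0.58 to 1.94; limma adjusted p = 0.257; exact permutation p = 0.0159). Without KO 2 it was 1.52 ± 0.19 (limma adjusted p = 0.0357), and it was 1.66 within slide 1 and 0.11 within slide 4. Both genes are also expressed by neurons. Of 20 neuron markers 14 were higher and 6 lower in knockout with a median difference of 0.18, and none passed the test (limma; 0 also had an unadjusted p below 0.05). Their summed signal was 68.1 to 111 times the 75th percentile in knockout and 44.4 to 96.7 in wild type, and their part in the granin difference was not tested.

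Pyy, the gene of peptide YY, an ileal and colonic hormone that the developing stomach and pancreas also express, read 1.81, 0.60, 1.71, 2.05 and 1.39 in knockout and 0.26, 0.60, 0.16 and 0.09 in wild type. KO 2 was level with WT 2, and the other 4 knockout mice lay well above. The difference was 1.24 ± 0.28 (SE), or 2.36-fold (95% interval 0.62 to 1.86; limma adjusted p = 0.208; exact permutation p = 0.0159), 1.46 ± 0.19 without KO 2 (limma adjusted p = 0.0378), 0.17 within slide 4 and 3.03-fold within slide 1. Ppy, a relative from the same peptide family that a probe may not fully separate from Pyy, read -2.55, -4.47, -2.64, -2.31 and -3.49 in knockout and -4.11, -3.74, -4.27 and -4.65 in wild type, with KO 2 again the lowest knockout array. The Ppy probe was well above background on 4 knockout and 2 wild-type arrays and needed the knockout arrays to pass the filter, so no size is given.

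Cck, the cholecystokinin gene, whose peptide shares its active end with gastrin, showed no common direction. It read -2.59, -2.95, -0.65, -0.41 and -0.34 in mice KO 1 to KO 5, compared with -1.42, -1.85, -1.31 and -1.84 in wild type. KO 1 and KO 2 lay below every wild-type mouse and KO 3, KO 4 and KO 5 above every one. The difference was 0.22 ± 0.56 (SE; 95% interval -1.04 to 1.47; limma adjusted p = 0.967; exact permutation p = 0.778), an interval that leaves room for more than a doubling in either direction. It was 0.61 without KO 2, 1.20 within slide 1 and -1.31 within slide 4.

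Iapp, the gene of islet amyloid polypeptide, which D cells of the stomach and beta cells of the pancreas make, was dim. It read -3.82, -3.02, -3.41, -3.63 and -2.82 in knockout, where all 5 arrays were well above background, and -4.46, -5.65, -4.49 and -5.76 in wild type, where 1 of 4 was. The groups did not overlap, but 3 of 4 wild-type values were not well above background and the probe passed the filter through the knockout arrays alone, so no test of it is given. The measured means lay 1.75 apart, and 0.25 apart with normexp background correction. Insulin genes did not follow it. Ins1 and Ins2 were chosen after their values were seen. Ins2 differed by -0.35 ± 0.39, and WT 4, the lowest array for Iapp, was the highest for Ins1 at -0.94 against -4.44 to -3.14 on the other 8. Of 8 islet markers tested, Gcg and Ppy among them, 4 were higher and 4 lower. Their summed signal was 6.77 to 7.57 times the 75th percentile in knockout and 7.58 to 8.65 in wild type. These sums were lower in knockout and only just apart, and Mafa made up 56.6% of the sum on WT 4. The beta cell genes G6pc2, Slc30a8 and Ucn3 were well above background on 0 of 9 arrays.

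**Figure D2:**
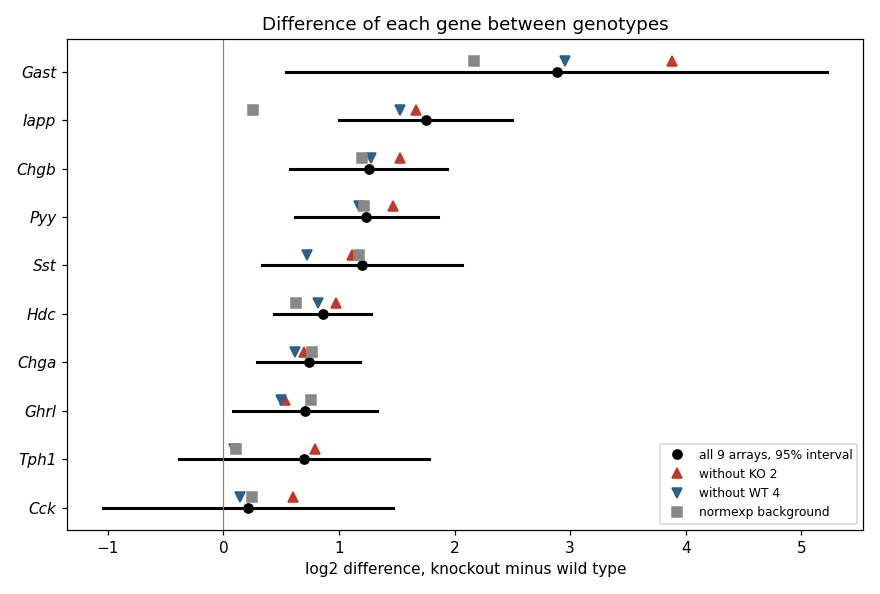
Log2 difference of each gene between knockout and wild type (black points, 95% interval from limma over 9 arrays), beside the values without KO 2 (red), without WT 4 (blue) and with normexp background correction (grey). Gast moves most without KO 2, Sst and Tph1 without WT 4, and Iapp with the background correction. The interval of Iapp is not read as a test, because its probe passed the filter on dim probes through the knockout arrays alone.

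Within a genotype the members did not vary as a block. Over the 9 arrays, with each genotype's mean removed, the Pearson correlation of the 45 pairs of members ran from -0.77 to 0.93 with a median of 0.25, and 29 were positive. The points share arrays and are few, so these are descriptions. Gast went with Pyy (0.93), Chgb (0.84) and Cck (0.66). Ghrl went with Sst (0.75) and against Chgb (-0.77), Cck (-0.69) and Gast (-0.58). Sst went with Tph1 (0.86), and WT 4 had the lowest deviation for both. KO 2 was the lowest knockout array for 6 members, Gast, Pyy, Chgb, Cck, Hdc and Tph1, and the highest for Sst and Ghrl. WT 4 was the lowest wild-type array for 7 members and the highest for 0. The wild-type maximum was exceeded by 9, 7, 10, 8 and 8 members on KO 1 to KO 5 in that order, Iapp among them each time. Of all genes tested 15.1%, 22.4%, 23.7%, 16.6% and 23.4% did so on the same arrays.

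**Figure D3:**
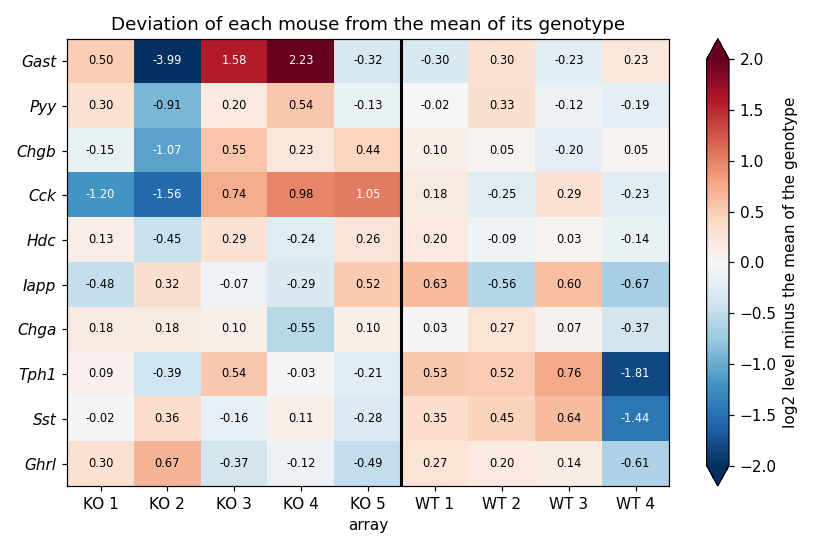
Log2 level of each gene (rows) on each array (columns) minus the mean of its genotype, with red above and blue below the mean and the colour scale ending at 2. KO 2 is low for Gast, Cck, Chgb and Pyy (-3.99, -1.56, -1.07 and -0.91) and high for Ghrl (0.67), and WT 4 is low for Tph1 and Sst (-1.81 and -1.44).

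For the 7 members well above background on all arrays, the genes whose deviations were most alike over the 9 arrays were Ppy for Pyy (r = 0.98), Nrg4 for Ghrl (0.997), Guca1a for Sst (0.99), C1qtnf9 for Cck (0.99), Tmeff2 for Chgb (0.97), Ubac1 for Chga (0.96) and Fgfr1 for Hdc (0.94). Each is the highest r found in a search over all tested genes with a symbol, and such a search returns high values. Ppy was well above background on 6 of the 9 arrays. The likenesses rest on 9 points each and are descriptions.

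Lists of other gut peptide, granule, receptor and endocrine transcription factor genes had medians below that of the members, and some of their genes had means further apart than that median. The lists are not confined to endocrine cells, and the granule list shares Snap25 with the neuron markers. Counts from these lists include genes that needed the knockout arrays to pass the filter on dim probes, with fewer than 4 wild-type arrays well above background. They are Gip, Npy and Ppy among peptides, and Ptprn, Mboat4 and Slc18a1 among granule genes. Sstr3, Npy1r, Hrh1, Hrh3 and Htr3a among receptors and the transcription factor genes Rfx3, Fev and Pdx1 are the others. Of these, Ppy, Sstr3, Npy1r and Pdx1 are among the genes counted below with an unadjusted p (limma) below 0.05. Of 19 other gut peptide genes tested from a list of 26, 14 were higher in knockout and 5 lower, with a median of 0.51, and none passed the test (limma; 4 had an unadjusted p below 0.05, all higher). The calcitonin-family gene Calcb (1.31 ± 0.30; limma adjusted p = 0.214) and Npw, the neuropeptide W gene (2.45-fold; 0.295), had groups that did not overlap. Gcg, the glucagon precursor gene, lay at 0.46 ± 0.39 and the duodenal secretin gene Sct at 1.04 ± 0.33, both chosen after their values were seen.

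Of 29 granule, prohormone processing and amine handling genes tested out of 30, 21 were higher and 8 lower, with a median of 0.30, and none passed (limma; 8 had an unadjusted p below 0.05, all higher). The synaptotagmin gene Syt13 (0.63 ± 0.15; limma adjusted p = 0.256), the carboxypeptidase gene Cpe (0.58 ± 0.16; 0.301) and the endocrine secretory gene Resp18 (0.68 ± 0.22; 0.416) had non-overlapping groups. The convertase genes Pcsk1 and Pcsk2, whose products cut prohormones, lay at 0.72 ± 0.24 and 0.72 ± 0.21. Not every gene of the list was clearly higher. Syp, the synaptophysin gene, lay at -0.13 ± 0.19 and Cadps, a granule priming gene, at 0.01 ± 0.16, both chosen after their values were seen.

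Among 19 receptor and histamine breakdown genes tested out of 31, 12 were higher and 7 lower with a median of 0.21, and none passed (limma; 4 had an unadjusted p below 0.05, all higher). Of the somatostatin receptors, Sstr3 was well above background on 5 of 5 knockout and 1 of 4 wild-type arrays, so no size is given, while Sstr1 (-0.01 ± 0.28), Sstr4 (-0.01 ± 0.24) and Sstr5 (-0.12 ± 0.19) lay near 0. Sstr2 and Npy2r, the latter a peptide YY receptor gene, were well above background on 0 of 9 arrays. Of 14 endocrine transcription factor genes tested out of 22, 11 were higher and 3 lower with a median of 0.43, and none passed (limma; 3 had an unadjusted p below 0.05, all higher). Insm1, a zinc finger factor of endocrine differentiation, lay at 0.64 ± 0.20 with groups that did not overlap (limma adjusted p = 0.384), whereas Neurog3, the factor that starts the endocrine lineage, chosen after its values were seen, lay at 0.02 ± 0.49.

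Markers of other cells were read beside the members, and their summed signals overlapped between the genotypes in the glandular, muscle, squamous, intestinal and exocrine pancreas lists. Of 18 glandular stomach markers 17 were higher in knockout, with a median difference of 0.74, and 1, the surface cell gene Gkn2, passed the test. Their summed signal was 1664 to 2534 times the 75th percentile in knockout and 1211 to 2060 in wild type. Among wild-type arrays WT 4, the lowest for 7 members, had the highest glandular, intestinal, neuronal and exocrine pancreas sums (2060, 171, 96.7 and 235) and the lowest squamous and muscle sums (567 and 1308). Most of these sums rest on a bright gene: on WT 4 Tff1 made up 65.2% of the glandular, Lgals4 68.8% of the intestinal, Snap25 70.5% of the neuronal, Clps 81.3% of the exocrine pancreas and Lor 70.8% of the squamous sum. Gene by gene, WT 4 was the highest wild-type array for 12 of 18 glandular, 9 of 14 intestinal, 13 of 20 neuronal and 9 of 17 exocrine pancreas markers, and the lowest for 13 of 14 squamous and 6 of 10 muscle markers. Of 10 smooth muscle markers 9 were lower (median -0.44; summed signal 943 to 1490 in knockout and 1308 to 2084 in wild type), and of 14 squamous forestomach markers 11 were lower (median -0.29; 524 to 1312 and 567 to 1829). Of 14 intestinal markers tested 11 were higher (median 0.60; 140 to 188 and 94.0 to 171). Of 17 exocrine pancreas markers 13 were higher (median 0.47; 122 to 375 and 128 to 235), with the digestive enzyme genes Prss2 and Pnlip well above background on 0 of 9 arrays. The part of these shifts in the members' differences was not tested.

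**Figure D4:**
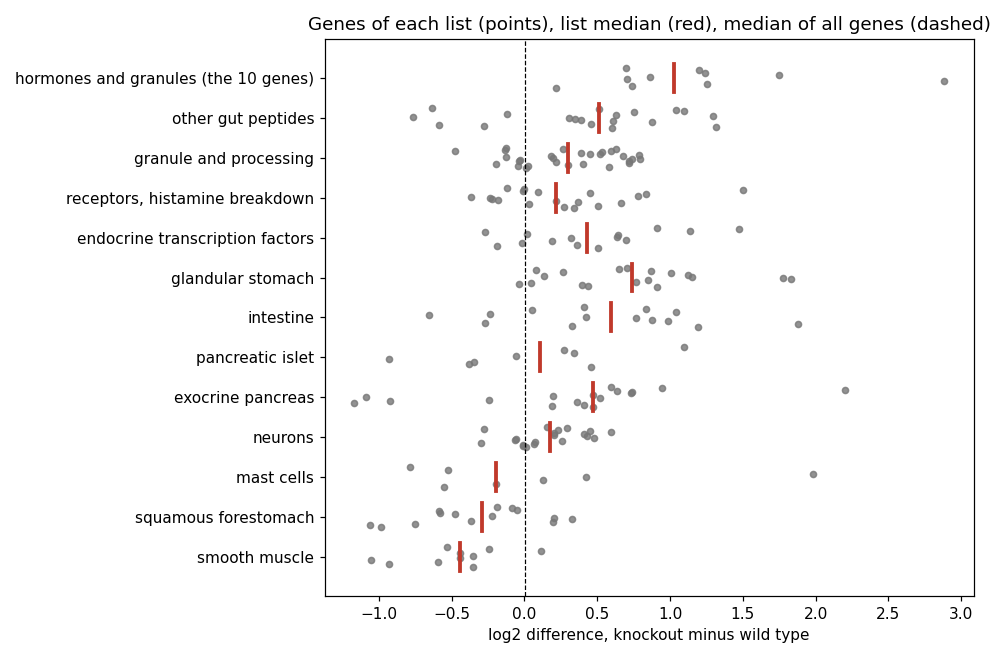
Log2 difference between knockout and wild type for each tested gene of the endocrine lists and the cell type marker lists (grey points), with each list's median in red and the median of all genes as a dashed line. The 10 hormone and granule genes have a median of 1.03, glandular stomach markers 0.74 and smooth muscle markers -0.44. Without Iapp, whose probe passed the filter on dim probes through the knockout arrays alone, the hormone and granule median is 0.86.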

How the data were processed

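Per the file headers, the deposited files hold spot intensity from an Agilent scanner read with Feature Extraction 10.5.1.1 on a design annotated on mm9, with background subtracted and detrended and no normalization between arrays. The submitters' processing notes name version 9.1. The deposited files also hold other values per spot, namely yes or no flags for background, saturation and outliers. A table deposited by the authors for the whole series gives log2 values. After a constant shift per array and centring per probe they matched log2 of the processed signal within 0.01 for 99.96% of 55249 probes, so scale and direction are settled and the centre used per probe is unknown. Its column medians were 0.044, 0.22, -0.12, 0.035 and -0.14 for the knockout arrays in order and -0.28, -0.16, 0.22 and 0.38 for the wild-type arrays in order.

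Control and outlier spots were left out, the spots of a probe were averaged as log2, and each array's 75th percentile was subtracted. The filter kept 30205 probes, those detected well over background on 4 or more of 9 arrays. The kept probe with the highest mean stood for a gene. Of 55681 probes, 26762 matched RefSeq (GRCm38.p6, used for names and promoters) by accession and 2878 took another name. Of the genes tested, 6234 have no symbol there. Genotypes were compared with limma 3.58.1 (lmFit, eBayes, two-sided) in R 4.3.3 over 5 and 4 arrays with Benjamini-Hochberg adjustment and a threshold of 0.05, and single genes also with an exact permutation test over 126 splits. The labels give each array a mouse of its own. The number of arrays limits the precision. The fit was tested on simulated data. The members, lists and tests were chosen with earlier results of these data known. Named are all members, their direct partners, and per list up to 3 genes with the smallest p and groups that do not overlap. Other names are said to be chosen after their values were seen. Alternatives covered scaling, background correction, the dim-probe filter, probe choice, slide, mouse number, Y-linked signal, moderation and leaving out each array. A genome sequence was not used here.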

Additional observations from a re-analysis of the deposited data

Results flagged for a closer look

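Of the 20 groups of levels checked, 10 genes in each genotype, 4 had an extreme mouse by Dixon's test, and chance gives about 1 in 20. In wild type WT 4 was far below the other 3 mice for Sst (0.46), Ghrl (5.45) and Tph1 (-5.83). In knockout KO 4 was far below the other 4 mice for Chga (2.88). KO 2, at -3.74 for Gast, did not pass that test, because the other knockout mice were spread as well.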

How the results depend on the processing

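Over 26 alternatives, 249 of 257 values of single members kept the direction and 3 passed the threshold, all without KO 2. The 8 that turned were Gast (-1.11) and Tph1 (-0.22) within slide 4, where KO 2 stands alone for its genotype and is assumed to vary as the wild-type arrays do, and Cck within slide 4 (-1.31), with a covariate for Y-linked signal (-0.22), over arrays with Y-linked signal (-0.017), with the replicate block (-0.046) and when an array was left out (range -0.046 to 0.61). The median of the members was 0.27 within slide 4. The count of members past the threshold ran from 0 to 3 when an array was left out and was 0 under every other alternative. With the covariate for Y-linked signal, Sst (1.12 ± 0.53) and Ghrl (0.74 ± 0.38) no longer had an unadjusted limma p below 0.05 (0.0621 and 0.0827). The other members with such a p kept it. Over all genes 44 passed, against 22 with no filter on dim probes, 5 with slide as a fixed block, 2 within slide 1, 4 with the replicate block, 4 with the Y-linked covariate and 4 over arrays with Y-linked signal, and 11 to 161 when an array was left out. The cause of these shifts was not tested. The replicate block joins mice by a number alone, since deviations of same-numbered mice correlated at -0.30, 0.12, 0.15 and -0.48, and it left 0 members past the threshold. Signal over background limits Gast, Tph1 and Iapp, which a filter for probes well above background on all arrays removed. The share of called genes that were higher was 27 of 44, against 9 of 22 with no filter on dim probes.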
